A study of Mus musculus with 23 samples.

Results

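Fibroblasts that had received fibroblast RNA were set against cardiomyocytes, the heart muscle cells, in mouse cells profiled 1 at a time. The 3 fibroblasts titled fibroControl and the 4 cells titled cardiomyocyte were taken by title, 7 of the 23 samples, and the comparison used every probe set of the array with 1 gene symbol, 34945 of 45101, which covered 18193 genes. The study moved whole populations of messenger RNA from a donor cell type into a recipient cell by lipid transfection, an approach called TIPeR (transcriptome-induced phenotype remodelling). The fibroControl cells were fibroblasts transfected with poly-A RNA of fibroblasts, so they carried the handling and the RNA load of a transfection without RNA from another cell type. The labels give no transfection for the cardiomyocytes, nor for another group of 3 fibroblasts that served as the other fibroblast reference. Cell type and transfection thus changed together between fibroControl cells and cardiomyocytes. In that comparison their parts cannot be told apart, for any gene or list below. All cells had been grown in DMEM with fetal bovine serum, drawn up singly with a glass micropipette, and amplified as antisense RNA (aRNA) before hybridisation. No source used here gives the strain, the age, the organ of the fibroblasts or the number of cultures or animals, so each p-value speaks only for the variation among these individual cells, part of which may be technical.

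In a cardiomyocyte, myosin thick filaments pull on actin thin filaments within the sarcomere, whose ends are anchored at the Z-disc. Calcium released from the sarcoplasmic reticulum through the ryanodine receptor lets the troponin complex open the thin filament, and the pump SERCA2 returns the calcium so that the cell relaxes. Fibroblasts have no sarcomeres: they secrete collagens and other matrix proteins and hold tension through non-muscle actomyosin bundles called stress fibres, inside a network of vimentin filaments.

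The labels were checked against marker genes. Over 10 cardiomyocyte markers the mean level was 8.04 to 9.17 on the log2 scale in the cardiomyocytes, 4.53 to 4.92 in fibroControl cells and 4.90 to 6.19 in the fibroblasts without transfection. Over 11 fibroblast markers it was 8.80 to 10.47 in fibroControl cells, 8.48 to 10.38 in the other fibroblasts and 6.34 to 8.45 in the cardiomyocytes. The mean marker levels of both cell types were therefore on the side their labels give, with no overlap between fibroControl cells and cardiomyocytes. Marker by marker, 7 of the 10 cardiomyocyte markers passed in limma, all higher in cardiomyocytes, and 8 did not overlap between these groups. Of the 11 fibroblast markers 4 passed, all lower in cardiomyocytes, and 4 did not overlap, so most of them overlapped. Over all genes 3.32% passed and 19.5% did not overlap. None of the markers of smooth muscle and pericytes (6), endothelium (5), macrophages and blood (6), skeletal muscle (5), astrocytes (4) or epithelium (4) passed in limma (3, 1, 1, 1, 0 and 0 of them at an unadjusted p under 0.05). Mean levels of the smooth muscle and pericyte markers were 5.95 to 7.02 in fibroControl cells and 5.34 to 5.77 in cardiomyocytes, and those of the macrophage and blood markers were 5.15 to 5.87 and 6.47 to 7.22.

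The groups also differed in technical readouts. The 18S control probe sets, which read ribosomal RNA, had mean levels of 12.08, 11.23 and 11.56 in fibroControl cells 1 to 3 and of 6.94, 8.24, 7.09 and 7.67 in cardiomyocytes 1 to 4. Every fibroControl cell was above every cardiomyocyte, and the fibroblasts without transfection were at 7.45 ± 0.53 (SD, n = 3), near the cardiomyocytes. The B2 control also separated the groups, at 11.74 ± 0.74 (SD, n = 3) in fibroControl cells and 7.13 ± 0.53 (SD, n = 4) in cardiomyocytes. The other fibroblasts were at 8.34 ± 2.35 (SD, n = 3). Of 9 housekeeping genes 2 passed in limma, both lower in cardiomyocytes (Actb and Pgk1), against 2.14% of all genes. The mean level of the 9 was 9.32 to 9.53 in fibroControl cells and 7.74 to 8.59 in cardiomyocytes. The 3′ minus 5′ signal of the Gapdh control, a measure of how far the amplified RNA is shortened, was 5.37 ± 0.53 (SD, n = 3) and 4.89 ± 1.20 (SD, n = 4), with overlap. Of the fibroblasts without transfection, fibroblast 3 stood apart. Its B2 level was 11.02, against 6.66 and 7.34 in fibroblasts 1 and 2. Its mean correlation with the other cells of its group was 0.79, against 0.85 and 0.86 for fibroblasts 1 and 2. The count from a fit that carries the 18S level as a covariate is given beside the lists of the main cell functions. That fit takes its 18S slope from the variation within all 6 groups, mainly in fibroTIPeR cells, the fibroblasts given cardiomyocyte RNA. Their 18S SD was 2.59, against 0.43 to 0.68 in the other groups. Since 18S separated the compared groups fully, the fit carries that slope over a range that neither group fills. It cannot show that the slope holds there, and it is less precise. For Myh6 the SE of the difference was 0.74 in the main fit and 1.01 with the covariate. No conclusion about 18S is drawn from a call lost in that fit.

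Of the 18193 genes, 604 (3.32%) passed the threshold, an adjusted p under 0.05 in limma: 214 (1.18%) were higher in the cardiomyocytes and 390 (2.14%) were higher in fibroControl cells. In 586 of the 604 the groups did not overlap, against 19.5% of all genes tested. The changes were large, with a median size of 3.82 on the log2 scale, and 268 were of at least 4. The genes higher in cardiomyocytes had a median level of 9.63 there and 5.24 in fibroControl cells, and the genes higher in fibroControl cells had a median of 9.38 there and 4.75 in cardiomyocytes, while the median over all genes was 5.71. Most of these differences thus ran between a level below the array's middle in the lower group (122 of 214 and 298 of 390 genes) and a level above it in the higher group (195 of 214 and 376 of 390). The same cardiomyocytes against the fibroblasts without transfection gave 41 genes (0.225%), 18 (0.0989%) higher and 23 (0.126%) lower, and the 2 kinds of fibroblast differed from each other in 283 genes (1.56%). Leaving out 1 cell took the 604 genes to 320, 257 and 352 without fibroControl 1, 2 and 3, and to 333, 327, 324 and 341 without cardiomyocytes 1, 2, 3 and 4. The 41 genes became 11 without fibroblast 3 and 26, 20 and 26 without cardiomyocytes 1, 3 and 4, and the 283 genes became 85, 134 and 144 without fibroControl 1, 2 and 3 and 134, 42 and 67 without fibroblasts 1, 2 and 3. With the 18S level as a covariate 6 genes passed, all higher in cardiomyocytes (Atp2a2, Tnni3, Mybpc3, Myl2, Myh6 and Plin5), and 0 passed as lower, against 525 higher and 701 lower at an unadjusted p under 0.05.

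**Figure D1:**
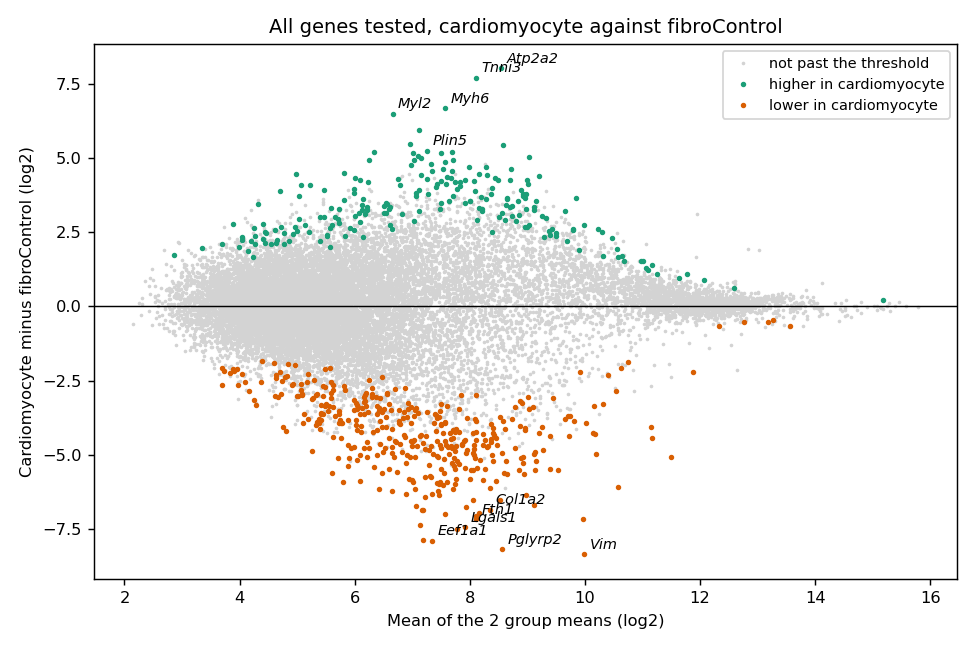
Each point is 1 of the 18193 genes, with the mean of the group means on the x axis and the cardiomyocyte minus fibroControl difference on the y axis (both log2); coloured points passed the adjusted p threshold. The 214 genes higher in cardiomyocytes are led by Atp2a2 and Tnni3, and the 390 lower genes by Vim and Pglyrp2.

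The genes were read through 31 lists of cell functions, of which 686 genes were measured on the array. The lists of the contractile apparatus and calcium cycling held members that rose in cardiomyocytes, and the lists of matrix, cytoskeleton, glycolysis and ribosomal proteins held members that fell. Here and below, rose and fell mean higher and lower in cardiomyocytes than in fibroControl cells. Over all genes 1.18% passed as higher and 2.14% as lower, the shares beside which each list count stands.

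**Figure D2:**
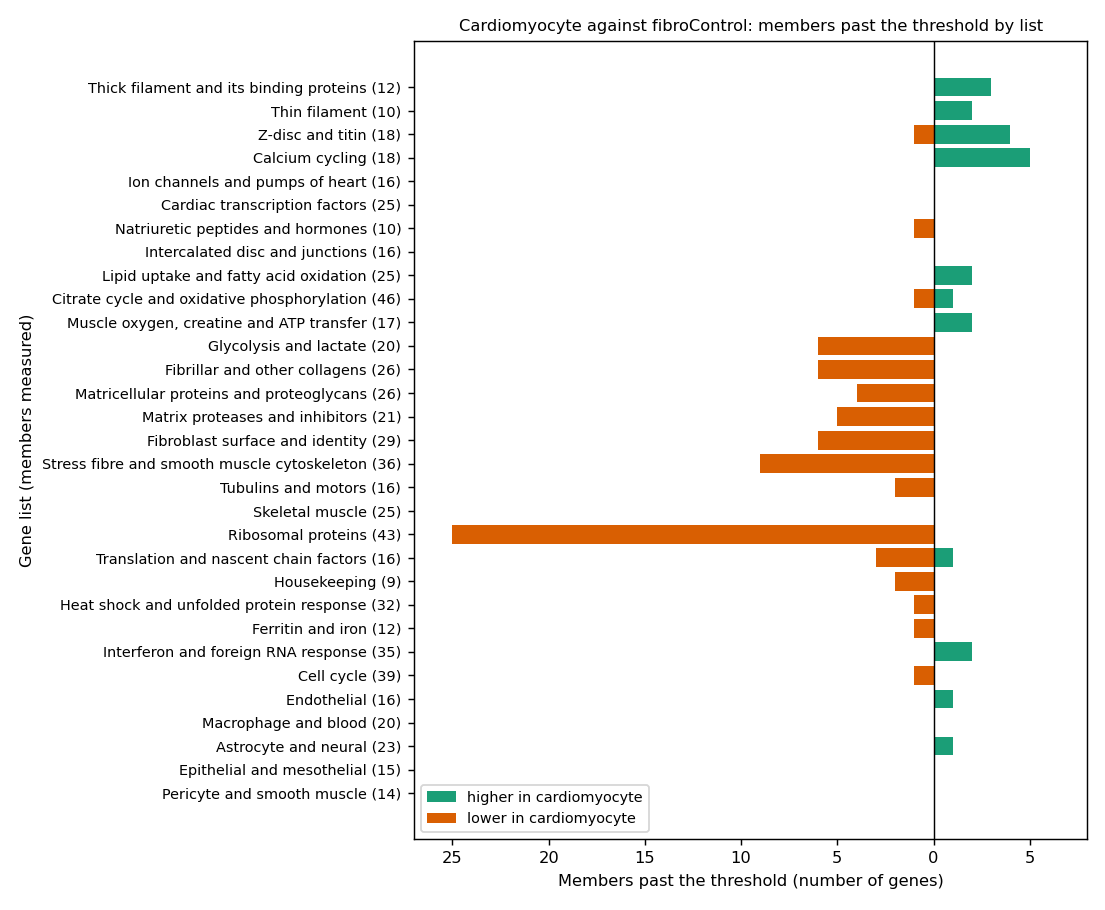
Bars give, for each gene list (number of measured members in brackets), how many members passed the adjusted p threshold, with members higher in cardiomyocytes to the right of 0 and members lower to the left. Ribosomal proteins had the most members past the threshold, 25 of 43 lower, and calcium cycling the most higher members, 5 of 18.

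In the thick filament list 3 of 12 members rose in cardiomyocytes (Myh6, Myl2 and Mybpc3) and 0 fell, with a median difference of 0.83 over the list against 0.10 over all genes. Myh6, the alpha heavy chain of cardiac myosin and the main motor of the adult mouse heart, read 3.82, 4.27 and 4.63 in the fibroControl cells and 9.90, 11.55, 11.76 and 10.44 in the cardiomyocytes. The lowest cardiomyocyte was more than 5 log2 units above the highest fibroControl cell, and the difference was 6.67 ± 0.74 (SE; adjusted p = 6.26e-06). The fibroblasts without transfection read 5.67, 5.69 and 8.48 for Myh6, and the difference from them was 4.30 (adjusted p = 0.00584). Myl2, the regulatory light chain of ventricular myosin, read 3.54, 2.76 and 3.95 in fibroControl cells and 8.60, 10.12, 10.50 and 10.36 in cardiomyocytes. Its groups were again well apart, by 6.48 ± 0.68 (SE; adjusted p = 6.26e-06), and by 5.67 from the other fibroblasts (adjusted p = 4.62e-05). Mybpc3, the cardiac myosin-binding protein C that sets cross-bridge speed, read 5.47, 6.08 and 7.99 in fibroControl cells and 10.63, 11.74, 11.97 and 11.77 in cardiomyocytes. The difference of 5.01 ± 0.99 (SE; adjusted p = 0.0076) was close to the 4.94 found against the other fibroblasts (adjusted p = 0.0285). All 3 genes kept their call when any 1 of the 7 cells was left out, and with the 18S level as a covariate.

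Other members of the thick filament list did not pass. Myl3, the essential light chain of ventricular myosin, read 7.09, 6.21 and 7.06 against 9.06, 10.25, 10.73 and 10.70. The groups did not overlap, yet the difference of 3.40 had an adjusted p of 0.066. Myh7, the beta heavy chain that the fetal heart uses, was at 3.87 ± 0.75 (SD, n = 3) and 4.47 ± 1.97 (SD, n = 4), both below the median level of all genes, with cardiomyocyte 2 alone high at 7.21.

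The thin filament list had 2 of 10 members higher (Tnni3 and Actc1) and 0 lower, with a median difference of 1.90; with the 18S covariate 1 passed, Tnni3. Tnni3, the cardiac troponin I that holds the thin filament shut at low calcium, read 6.41, 4.27 and 2.12 in fibroControl cells and 10.54, 12.25, 12.81 and 12.24 in cardiomyocytes. Its difference of 7.69 ± 0.82 (SE; adjusted p = 6.26e-06) was the largest of the sarcomere lists, and it was 7.20 from the other fibroblasts (adjusted p = 2.64e-05). Actc1, cardiac alpha-actin, read 5.47, 6.32 and 4.37 against 8.40, 9.02, 9.68 and 9.51. That difference was 3.77 ± 0.84 (SE; adjusted p = 0.0139), with an adjusted p of 0.0693 without fibroControl 3, and 3.03 from the other fibroblasts (adjusted p = 0.169). The other troponin subunits of the heart did not pass: Tnnt2 (troponin T) differed by 2.03 (adjusted p = 0.187) and Tnnc1 (troponin C) by 2.20 (adjusted p = 0.141). In both of these genes the groups did not overlap, with every cardiomyocyte above every fibroControl cell. Tnnt2 in the fibroblasts without transfection ran from 6.41 to 11.28, the highest value above every cardiomyocyte.

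At the Z-disc, 4 of 18 listed genes rose (Myoz2, Nebl, Nexn and Csrp3) and 1 fell (Flnc), with a median difference of 1.0; with the 18S covariate 0 passed in limma (7 higher and 1 lower at an unadjusted p under 0.05). Myoz2, calsarcin, which tethers calcineurin to the Z-disc, read 5.99, 5.20 and 3.56 against 8.61, 10.09, 11.03 and 10.58. The difference was 5.16 ± 0.95 (SE; adjusted p = 0.00413), and it was 5.76 from the other fibroblasts (adjusted p = 0.00351). Nebl, the cardiac nebulette that binds actin at the Z-disc, read 5.99, 4.89 and 3.35 against 7.66, 8.77, 9.44 and 9.41. It differed by 4.08 ± 0.77 (SE; adjusted p = 0.00514), although 2 of its 3 probe sets pointed the other way. Csrp3, the muscle LIM protein, differed by 2.83 (adjusted p = 0.0194) and lost its call without fibroControl 1, fibroControl 2 or cardiomyocyte 3 (adjusted p up to 0.0695). Nexn, an actin-binding Z-disc protein, differed by 3.58 from fibroControl cells (adjusted p = 0.01) and by 1.19 from the other fibroblasts (adjusted p = 0.627). Flnc, the filamin of muscle, was higher in fibroControl cells: 5.66, 7.27 and 10.05 against 4.40 to 5.11, with the largest value in fibroControl 3. Its difference of -2.92 (adjusted p = 0.0352) passed in 1 of the 7 fits that left out a cell, with an adjusted p of 0.208 without fibroControl 3. Ttn, the giant spring titin, differed by 0.87 (adjusted p = 0.449), its cardiomyocyte values running from 5.12 to 7.68. All 6 of its probe sets pointed that way, and 1 of the others passed as higher when every probe set was tested.

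**Figure D3:**
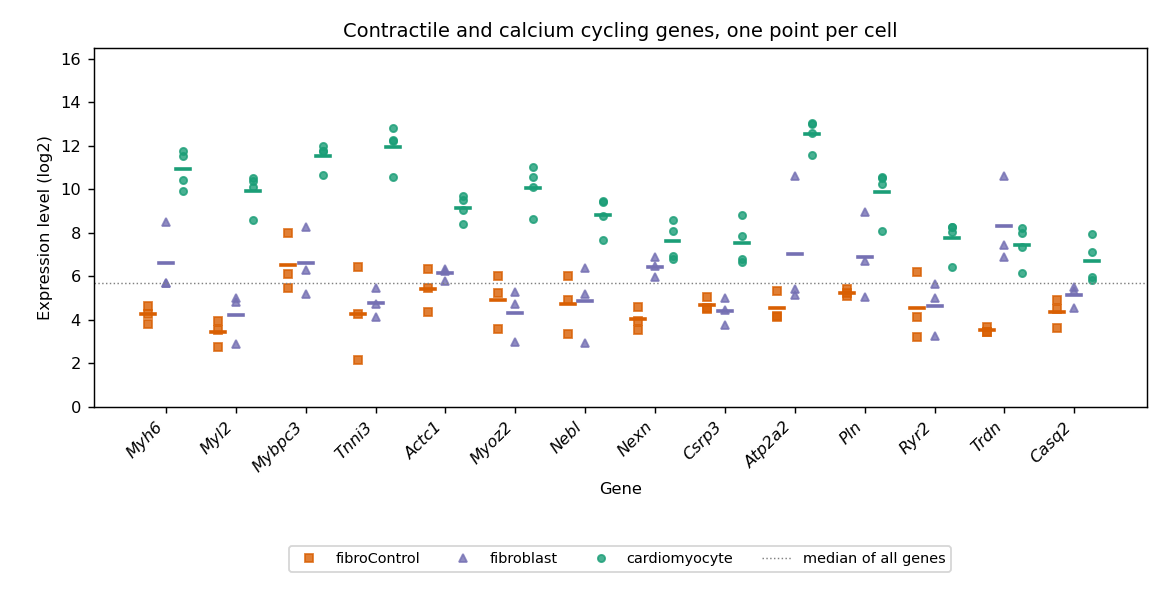
Each point is 1 cell and each bar a group mean (log2 level) for 14 contractile and calcium cycling genes past the threshold; the dotted line is the median of all genes, 5.71. Every cardiomyocyte lies above every fibroControl cell in all 14, while fibroblasts without transfection overlap the cardiomyocytes in Trdn, Nexn and Pln.

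These 14 genes rose together, so the DNA around their start sites is shown for 4 of them, picked after the values were seen because each window holds a motif of muscle transcription factors. RefSeq windows of the mouse assembly GRCm38.p6, from 250 bases before to 50 after the annotated start, were found for 11 of the 14 genes (none for Atp2a2, Nexn and Trdn in the table used). Each is written 5′ to 3′ on the gene's strand, and capitals mark the motif. Mybpc3 lies at chr2:91117894-91118193 on the plus strand, with a match to the MEF2 consensus that begins 90 bases before the start. Myoz2 lies at chr3:123034938-123035237 on the minus strand, with a MEF2 match 33 bases before the start. Actc1 lies at chr2:114052826-114053125 on the minus strand, with a CArG box, the site of serum response factor, 47 bases before the start, and the letters TATAAA beginning 33 bases after it. Myh6 lies at chr14:54966558-54966857 on the minus strand, with TATAAA beginning 1 base after the start and, on the opposite strand, the MCAT element that TEAD factors bind, 206 bases before it.
Mybpc3: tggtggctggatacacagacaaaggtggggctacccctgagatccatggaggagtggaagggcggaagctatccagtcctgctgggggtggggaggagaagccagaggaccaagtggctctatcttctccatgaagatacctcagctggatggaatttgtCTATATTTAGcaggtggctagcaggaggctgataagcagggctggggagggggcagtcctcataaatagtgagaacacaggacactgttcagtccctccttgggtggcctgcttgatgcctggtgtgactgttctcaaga
Myoz2: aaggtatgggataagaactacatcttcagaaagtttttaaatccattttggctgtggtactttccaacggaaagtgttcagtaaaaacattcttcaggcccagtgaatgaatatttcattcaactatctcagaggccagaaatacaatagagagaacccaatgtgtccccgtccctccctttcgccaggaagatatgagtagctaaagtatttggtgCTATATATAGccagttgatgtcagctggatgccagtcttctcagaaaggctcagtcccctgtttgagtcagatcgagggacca
Actc1: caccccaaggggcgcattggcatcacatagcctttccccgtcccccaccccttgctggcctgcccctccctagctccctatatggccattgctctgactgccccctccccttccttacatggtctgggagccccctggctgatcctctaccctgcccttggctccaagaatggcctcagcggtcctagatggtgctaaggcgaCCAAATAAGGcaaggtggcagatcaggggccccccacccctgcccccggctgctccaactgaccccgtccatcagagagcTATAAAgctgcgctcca
Myh6: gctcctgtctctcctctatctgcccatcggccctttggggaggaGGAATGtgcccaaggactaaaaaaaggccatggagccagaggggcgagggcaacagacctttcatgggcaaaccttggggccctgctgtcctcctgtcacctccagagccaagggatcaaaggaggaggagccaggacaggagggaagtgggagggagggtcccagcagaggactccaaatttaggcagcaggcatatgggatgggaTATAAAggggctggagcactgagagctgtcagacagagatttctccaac

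Over the 11 windows the MEF2 consensus was found in 2 (Mybpc3 and Myoz2) and in 0.557% of all 32851 windows of the table. A CArG box was found in 2 (Actc1 and Nebl) and in 1.81% of all these genes. The letters TATAAA of the TATA box, at any place in the window, were found in 4 (Actc1, Myh6, Myl2 and Pln) and in 15.7% of genes. In Actc1 and Myh6 they began after the annotated start, so no TATA box is read from them there. The MCAT element, CATTCC, was found in 2 (Myh6 and Nebl) and in 16.6%. The GATA motif, AGATAA, was found in 3 (Myl2, Nebl and Pln) and in 12.7%, and the GC box, GGGCGG, in 3 (Mybpc3, Nebl and Ryr2) and in 38.2%. All motifs were searched on both strands, and in the 4 printed windows the matches do not overlap. A match describes the letters of a window, and with 11 genes these shares are a description with no test.

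Calcium cycling had 5 of 18 members higher (Atp2a2, Pln, Trdn, Ryr2 and Casq2) and 0 lower, with a median difference of 1.72; with the 18S covariate 1 passed, Atp2a2. Atp2a2, which encodes SERCA2, the pump that refills the sarcoplasmic reticulum, had the largest increase of all genes that passed. It read 4.17, 4.12 and 5.33 in fibroControl cells and 11.58, 12.60, 12.98 and 13.05 in cardiomyocytes. The groups were apart by 8.01 ± 1.16 (SE; adjusted p = 0.000518). The fibroblasts without transfection read 5.39, 5.11 and 10.60, so the cell with the high value, fibroblast 3, lay close under the cardiomyocytes, and the difference was 5.52 (adjusted p = 0.0358). The same cell was the highest of these fibroblasts for Myh6 (8.48), Mybpc3 (8.27), Trdn (10.59), Adm (12.95), Timp2 (14.63), Pgam1 (10.77) and Lgals1 (9.73). For Pln (5.05) and Pbsn (6.78) it was the lowest. The origin of its values was not tested. Of the 6 probe sets of Atp2a2, 5 pointed the same way, and 1 of the 6 passed when every probe set was tested. Pln, phospholamban, the brake on that pump, read 5.40, 5.20 and 5.07 against 8.06, 10.26, 10.52 and 10.56. Its difference was 4.62 ± 1.02 (SE; adjusted p = 0.0129), with all 3 probe sets in that direction, and 2.94 from the other fibroblasts (adjusted p = 0.322). Ryr2, the cardiac ryanodine receptor that releases the calcium, read 3.22, 6.21 and 4.12 against 6.44, 8.02, 8.26 and 8.26. The gap between the groups was narrow, and the difference of 3.23 (adjusted p = 0.0277) lost its call without fibroControl 1 or 3 or cardiomyocyte 2, 3 or 4 (adjusted p up to 0.141).

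Trdn, triadin, which couples the ryanodine receptor to its calcium store, depended on the reference. It read 3.68, 3.42 and 3.42 in fibroControl cells and 7.35, 8.20, 7.98 and 6.13 in cardiomyocytes, and the difference was 3.91 (adjusted p = 0.0127) with all 6 probe sets in that direction. The fibroblasts without transfection read 6.90, 7.44 and 10.59, overlapping the cardiomyocytes (difference -0.90, adjusted p = 0.764), and fibroControl cells were lower than those fibroblasts by 4.80 (adjusted p = 0.014). Casq2, the calcium-storing calsequestrin of the heart, differed by 2.37 (adjusted p = 0.0294). Slc8a1, the sodium-calcium exchanger, was high in both groups, at 9.87 ± 1.0 (SD, n = 3) and 11.14 ± 0.41 (SD, n = 4; adjusted p = 0.463). The count of 5 went from 3 (without fibroControl 1) to 6 when a cell was left out.

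None of the 25 measured cardiac transcription factors passed the threshold in limma, with 4 higher and 2 lower at an unadjusted p under 0.05 and a median difference of 0.21. Mef2c, a MADS-box activator of muscle genes, came nearest: 5.20, 7.43 and 8.85 in fibroControl cells against 9.34, 10.51, 10.83 and 10.32 in cardiomyocytes. Its groups did not overlap, the difference was 3.09 ± 0.91 (SE; adjusted p = 0.0546), and the fibroblasts without transfection were at 9.44 ± 0.48 (SD, n = 3), between 8.89 and 9.76. Of the 5 probe sets of Mef2c, 3 pointed the other way, as did 1 of 2 for Tbx5 and for Gata4. Tbx5, a T-box factor of the heart and forelimb, read 6.91, 7.17 and 6.95 against 9.37, 10.25, 9.18 and 9.64 (difference 2.60, adjusted p = 0.0812). Nkx2-5, the homeobox factor of the cardiac lineage, was high in both groups, 11.35, 8.12 and 10.18 against 9.99, 10.70, 10.49 and 10.69. Gata4, a zinc-finger factor of heart and endoderm, was at 7.47 ± 1.84 (SD, n = 3) in fibroControl cells and 6.14 ± 0.82 (SD, n = 4) in cardiomyocytes. For neither of these genes did the groups separate (adjusted p = 0.789 and 0.445).

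The heart's ion channels and pumps (16 measured) and the intercalated disc proteins that join cardiomyocytes (16) also had 0 members past the threshold in limma. At an unadjusted p under 0.05 the channels had 2 higher and 1 lower, and the disc proteins 3 higher and 2 lower. The channel genes with the smallest p-values were Kcnj5, an inward rectifier of the atrium, with a difference of 2.50 (adjusted p = 0.169), and Kcnq1, a repolarising channel, with 2.22 (adjusted p = 0.193). Among the disc proteins they were Ctnnb1, beta-catenin, at -3.22 (adjusted p = 0.13) and Dsg2, a desmosomal cadherin, at 2.46 (adjusted p = 0.219). Nppa and Nppb, the natriuretic peptides that stretched or fetal heart muscle secretes, differed by -0.69 (adjusted p = 0.595) and 0.38 (adjusted p = 0.868). Of the 10 hormone genes 1 passed, as lower: Adm, the vasodilator adrenomedullin, at 10.28, 10.54 and 12.38 in fibroControl cells and 3.17 to 5.38 in cardiomyocytes (difference -6.98 ± 1.39, SE; adjusted p = 0.00766). In the fibroblasts without transfection Adm spread from 4.12 to 12.95, and the difference from them was -4.50 (adjusted p = 0.249).

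Of the genes for lipid uptake and fatty acid oxidation 2 of 25 rose (Plin5 and Lpl) and 0 fell, with a median difference of 0.28; with the 18S covariate 1 passed, Plin5. Plin5, the perilipin that coats lipid droplets of oxidative tissues, read 4.86, 4.78 and 4.27 in fibroControl cells and 8.89, 10.80, 10.35 and 9.43 in cardiomyocytes. Both kinds of fibroblast were near the bottom of the scale: the difference was 5.24 ± 0.57 (SE; adjusted p = 6.26e-06) from fibroControl cells and 5.97 (adjusted p = 1.46e-06) from the others. Lpl, the lipase that frees fatty acids for uptake, read 6.53, 8.40 and 4.27 against 9.63, 11.68, 11.16 and 11.65, and differed by 4.63 (adjusted p = 0.0217). Of its 2 probe sets 1 pointed the other way, and it lost its call without fibroControl 1 or 3 or cardiomyocyte 2, 3 or 4 (adjusted p up to 0.116).

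Muscle genes for oxygen, creatine and ATP transfer gave 2 of 17 higher (Mb and Ckmt2) and 0 lower, and 0 with the 18S covariate in limma (4 higher and 0 lower at an unadjusted p under 0.05). Mb, the oxygen store myoglobin, read 4.69, 4.12 and 3.89 against 6.63, 7.05, 7.52 and 7.49. The cells of each group lay close together, and the difference was 2.94 ± 0.52 (SE; adjusted p = 0.00293). Ckmt2, the mitochondrial creatine kinase of striated muscle, differed by 2.68 (adjusted p = 0.0204) and lost its call without fibroControl 2 or 3 or cardiomyocyte 2 or 3 (adjusted p up to 0.0867). Ckm, the cytosolic creatine kinase of muscle, did not differ past the threshold: 10.91, 6.32 and 7.20 against 8.10 to 8.81 (adjusted p = 0.882). In the citrate cycle and oxidative phosphorylation 1 of 46 rose, Cox7a1, the heart and muscle form of a cytochrome oxidase subunit, by 3.10 ± 0.64 (SE; adjusted p = 0.00959). In the same list 1 fell, Ndufs3 of complex I, by 3.0 on the log2 scale (adjusted p = 0.044), a call lost in all 7 fits that left out a cell. A count of 2 in 46 is near the 3.32% of all genes that passed. With the 18S covariate 0 of the 46 passed in limma. At an unadjusted p under 0.05 in limma 15 were higher and 1 lower with it, against 4 higher and 5 lower in the main fit. The median difference of the list was 0.30 in the main fit and 0.97 with the covariate.

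Glycolysis moved the other way: 6 of 20 genes were lower in cardiomyocytes (Pgam1, Pgk1, Pkm, Tpi1, Aldoa and Eno2) and 0 higher, although the median difference of the list was -0.24; with the 18S covariate 0 passed in limma (1 higher and 2 lower at an unadjusted p under 0.05). Pgam1, phosphoglycerate mutase, read 11.70, 10.84 and 12.03 in fibroControl cells and 3.13, 4.28, 3.87 and 4.85 in cardiomyocytes. Its difference of -7.49 ± 1.32 (SE; adjusted p = 0.00293) was among the largest of the array, and the other fibroblasts spread from 6.30 to 10.77 (difference -3.98, adjusted p = 0.302). Pgk1, phosphoglycerate kinase, differed by -4.36 (adjusted p = 0.0171) and lost its call without fibroControl 2 or 3 (adjusted p up to 0.0663). Pkm, pyruvate kinase, and Tpi1, triose phosphate isomerase, differed by -3.82 (adjusted p = 0.0488) and -3.56 (adjusted p = 0.0407), both calls that no fit without 1 cell kept. Aldoa (aldolase) differed by -2.86 (adjusted p = 0.0483) and the enolase Eno2 by -2.66 (adjusted p = 0.0136). Against the fibroblasts without transfection 0 of the 20 passed in limma (5 at an unadjusted p under 0.05), and Pkm, Aldoa and Eno2 differed there by 0.01, -0.02 and 0.08. Leaving out a cell gave 1 (without fibroControl 3) to 3 members lower, and each other scaling gave 3.

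Of the fibroblast surface and identity genes 6 of 29 fell in cardiomyocytes (Vim, Lgals1, S100a6, S100a4, S100a10 and Prrx2) and 0 rose, with a median difference of -0.83; with the 18S covariate 0 passed in limma (0 higher and 6 lower at an unadjusted p under 0.05). Vim, the intermediate filament of mesenchymal cells, had the largest fall of the array. It read 14.46, 13.60 and 14.44 in fibroControl cells and 4.65, 4.17, 3.05 and 11.38 in cardiomyocytes. The difference came to -8.36 ± 1.14 (SE; adjusted p = 0.000248), with -9.04 from the other fibroblasts (adjusted p = 8.09e-05). Cardiomyocyte 4 stood apart from the other cardiomyocytes while staying below every fibroblast. S100a4, a calcium-binding protein of motile fibroblasts, read 12.73, 12.12 and 12.12 against 7.42, 6.94, 7.79 and 9.98, again with cardiomyocyte 4 the highest of its group. It differed by -4.29 ± 0.81 (SE; adjusted p = 0.00514) and by -5.03 from the other fibroblasts (adjusted p = 0.00268). S100a6, a relative of it, differed by -5.11 (adjusted p = 0.00825) and by -4.88 from the other fibroblasts (adjusted p = 0.0384), with all cardiomyocytes between 4.28 and 5.67. Lgals1, the secreted lectin galectin-1, read 12.08, 11.25 and 11.57 against 4.81, 3.58, 4.25 and 4.16. It fell by 7.43 on the log2 scale (adjusted p = 0.0015), while the fibroblasts without transfection, at 6.03, 6.53 and 9.73, lay between the groups (difference -3.23, adjusted p = 0.353).

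Not every fibroblast gene followed. Thy1, a surface marker of many fibroblasts, read 9.02, 7.79 and 8.54 in fibroControl cells and 8.85, 6.58, 6.94 and 9.71 in cardiomyocytes (adjusted p = 0.836). Pdgfra, a growth factor receptor of fibroblasts, differed by -2.52 (adjusted p = 0.282), with fibroControl cells spread from 4.50 to 9.52. Cardiomyocyte 4 held the highest cardiomyocyte value in 12 of the 29 fibroblast surface genes and in 8 of the 16 tubulin and motor genes, against 24.2% of all genes. The same cell was highest in 18 of 43 ribosomal protein, 11 of 26 matricellular and 7 of 18 calcium cycling genes, so this was not particular to fibroblast genes. In the Z-disc list it was highest in 4 of 18, and in the thin filament list in 2 of 10. The origin of these values was not tested.

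Collagens and their processing enzymes had 6 of 26 members lower (Col1a2, Col5a2, Col6a3, Loxl1, P4ha2 and Col6a2) and 0 higher, and the median difference of -2.61 was the most negative after the ribosomal proteins; with the 18S covariate 0 passed in limma (0 higher and 9 lower at an unadjusted p under 0.05). Col1a2, a chain of type I collagen, read 9.50, 12.87 and 12.94 in fibroControl cells and 5.55, 4.81, 4.63 and 4.70 in cardiomyocytes. All cardiomyocytes were low and close together, and the difference was -6.85 ± 1.21 (SE; adjusted p = 0.00297), with -4.42 from the other fibroblasts (adjusted p = 0.161). Col6a3, a chain of the microfibrillar type VI collagen, read 9.45, 7.49 and 11.06 against 3.64, 2.95, 4.29 and 4.58. It fell by 5.47 on the log2 scale (adjusted p = 0.00161) and was 3.94 higher in fibroControl cells than in the other fibroblasts (adjusted p = 0.0357). Col3a1, the type III collagen of loose tissue, read 3.95, 12.43 and 12.68 against 4.49, 3.13, 4.44 and 7.17. FibroControl 1 was as low as the cardiomyocytes, and the difference of -4.88 did not pass (adjusted p = 0.0877), although the other of its 2 probe sets passed as lower when every probe set was tested. Col5a2 showed the same split, at 5.77, 11.90 and 11.61 against 2.72 to 4.13 (difference -6.23, adjusted p = 0.0377), and lost its call in every fit without a cell except the fit without fibroControl 1 (adjusted p up to 0.155). Col1a1, the other chain of type I collagen, differed by -2.77 (adjusted p = 0.133).

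FibroControl 1 was the lowest of the fibroControl cells in 21 of the 26 collagen genes, against 36.2% of all genes. The mean level of the list was 6.96 in that cell, 9.0 and 9.78 in fibroControl 2 and 3, 6.68 to 8.88 in the other fibroblasts, and 6.28 to 6.58 in the cardiomyocytes. No fibroblast of either kind lay below the highest cardiomyocyte on this mean. The count of 6 ran from 2 (without fibroControl 3) to 8 when a cell was left out, was 2 or 3 under the other scalings, and 0 of 26 passed against the fibroblasts without transfection in limma (5 at an unadjusted p under 0.05).

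Matricellular proteins and proteoglycans gave 4 of 26 lower (Bgn, Igfbp4, Fbln5 and Fn1) and 0 higher, and 0 with the 18S covariate in limma (5 lower and 0 higher at an unadjusted p under 0.05). Bgn, the proteoglycan biglycan that binds collagen fibrils, read 12.69, 13.76 and 14.41 against 7.25, 5.25, 7.52 and 10.06, highest in cardiomyocyte 4. It differed by -6.10 ± 0.98 (SE; adjusted p = 0.0015) and by -4.46 from the other fibroblasts (adjusted p = 0.048), in both cases past the threshold. Fn1, fibronectin, read 8.73, 8.63 and 10.28 against 5.10, 4.89, 6.14 and 6.19, a difference of -3.63 (adjusted p = 0.0377) that did not hold in any fit without 1 cell (adjusted p up to 0.135). The fibroblasts without transfection were at 5.61 ± 0.52 (SD, n = 3), level with the cardiomyocytes. Igfbp4, a binding protein of insulin-like growth factors, differed by -4.93 (adjusted p = 0.00773) and by -0.69 from the other fibroblasts (adjusted p = 0.855). Fbln5, an elastic fibre protein, differed by -3.69 (adjusted p = 0.0387), with fibroControl 1 at 3.82 and the other fibroControl cells at 9.23 and 9.44. It lost its call in all such fits except the fit without fibroControl 1 (adjusted p up to 0.182), and the count of 4 ran from 2 (without fibroControl 2) to 5 and was 2 under each other scaling.

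Matrix proteases and their inhibitors gave 5 of 21 lower (Timp2, Mmp2, Mmp14, Serpinf1 and Cst3) and 0 higher, and 0 with the 18S covariate in limma (5 lower and 1 higher at an unadjusted p under 0.05). Mmp2, gelatinase A, read 8.06, 11.30 and 13.38 in fibroControl cells and 5.66, 5.20, 4.49 and 4.99 in cardiomyocytes (difference -5.83 ± 1.09, SE; adjusted p = 0.00504). The other fibroblasts, at 5.72, 5.53 and 5.05, were level with the cardiomyocytes, and fibroControl cells were 5.48 above them (adjusted p = 0.0193). Mmp14, the membrane protease that activates gelatinase A, read 9.81, 11.03 and 10.23 against 4.81, 4.78, 5.41 and 4.03 (difference -5.60, adjusted p = 0.00357), and the other fibroblasts lay between at 6.58 to 9.38. Timp2, the inhibitor that also docks gelatinase A to that protease, read 13.36, 13.29 and 13.95 against 4.65, 4.85, 6.71 and 9.33. It differed by -7.15 ± 1.36 (SE; adjusted p = 0.00539), but 3 of its 6 probe sets pointed the other way. Serpinf1, a secreted serpin, differed by -4.38 (adjusted p = 0.033), with fibroControl 1 again lowest at 6.71 against 10.60 and 10.64. Its call was kept only without fibroControl 1 or cardiomyocyte 4, with an adjusted p of up to 0.135 otherwise. The count of 5 ran from 3 (without fibroControl 2) to 6. For Mmp14 1 of 3 probe sets, and for Serpinf1 and Fbln5 1 of 2, pointed the other way.

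**Figure D4:**
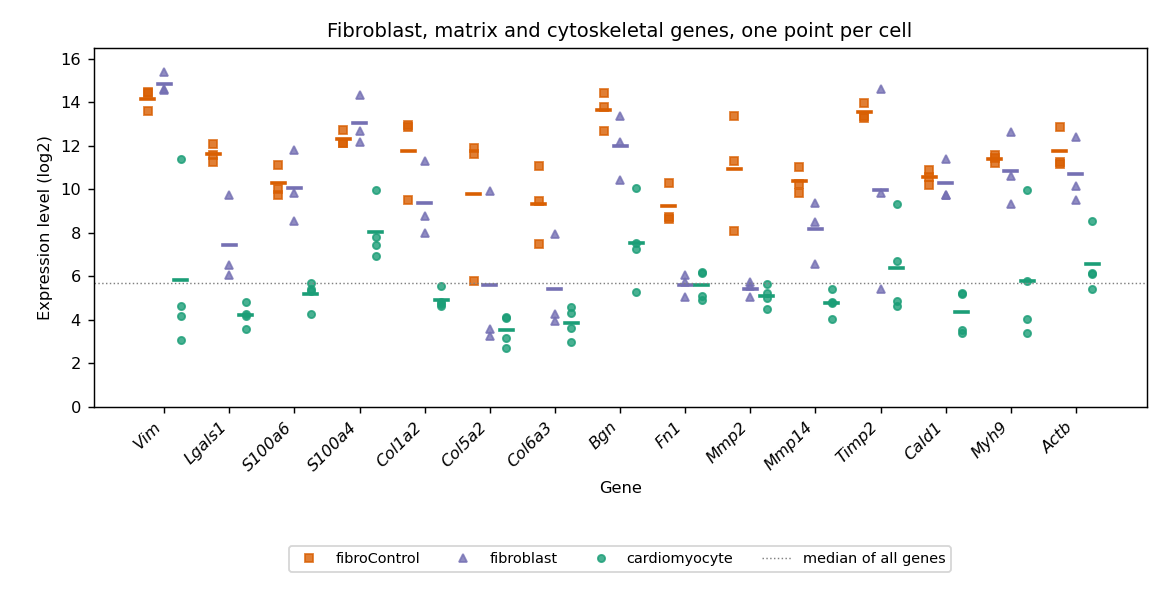
Each point is 1 cell and each bar a group mean (log2 level) for 15 fibroblast, matrix and cytoskeletal genes past the threshold; the dotted line is the median of all genes, 5.71. Cardiomyocytes lie below fibroControl cells throughout, and the fibroblasts without transfection lie with the cardiomyocytes for Fn1 and Mmp2. The genes for which cardiomyocyte 4 is the highest of its group include Vim, S100a4, Col6a3, Bgn, Fn1, Timp2, Myh9 and Actb.

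The stress fibre and smooth muscle cytoskeleton list had 9 of 36 members lower (Cald1, Lasp1, Tpm3, Myh9, Actn1, Actb, Arpc2, Actg1 and Tmsb4x) and 0 higher, with a median difference of -1.29; 19 of the 36 did not overlap between the groups, against the 19.5% of all genes. With the 18S covariate 0 of the list passed in limma (3 higher and 5 lower at an unadjusted p under 0.05). Cald1, caldesmon, which binds actin and tropomyosin outside the sarcomere, read 10.87, 10.57 and 10.18 in fibroControl cells and 5.21, 3.41, 5.18 and 3.54 in cardiomyocytes. Its differences were alike from both references, -6.21 ± 0.90 (SE; adjusted p = 0.000518) and -5.95 (adjusted p = 0.00169), although 2 of its 5 probe sets pointed the other way. Tpm3, a tropomyosin of the general cytoskeleton, differed by -5.65 (adjusted p = 0.00211) and by -6.04 from the other fibroblasts (adjusted p = 0.00214). Actn1, the non-muscle alpha-actinin that crosslinks stress fibres, read 9.77, 11.07 and 11.61 against 3.87, 6.47, 5.85 and 4.97, a difference of -5.53 (adjusted p = 0.00413) and of -6.56 from the other fibroblasts (adjusted p = 0.00199). Actn2, its sarcomeric counterpart, was below the array's median level in every one of these cells and differed by 0.20 (adjusted p = 0.912).

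Myh9, the heavy chain of non-muscle myosin IIA, read 11.57, 11.19 and 11.43 against 3.40, 5.77, 4.01 and 9.98. Cardiomyocyte 4 lay close under the fibroblasts, and the difference of -5.61 (adjusted p = 0.0169) kept its call only without cardiomyocyte 2 or 4 (adjusted p up to 0.0586 otherwise). Actb, cytoplasmic beta-actin, read 12.85, 11.25 and 11.16 against 6.08, 5.41, 6.14 and 8.55 (difference -5.21, adjusted p = 0.00514). Its difference of -4.15 from the other fibroblasts did not pass (adjusted p = 0.0784). Lasp1, an actin-bound LIM protein, differed by -5.72 (adjusted p = 0.01) and by -5.96 from the other fibroblasts (adjusted p = 0.0285), with 2 of 9 probe sets in the other direction. Acta2 and Tagln, the smooth muscle actin and transgelin that mark myofibroblasts, did not pass (differences -1.35 and -4.09, adjusted p = 0.721 and 0.205), and the 3 fibroControl cells spread from 5.49 to 8.86 and from 5.37 to 10.48. Leaving out a cell gave 5 (without fibroControl 1) to 9 of the 36. For Tpm3 2 of 5 probe sets and for Myh9 1 of 5 pointed the other way.

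Tubulins and motors had 2 of 16 lower (Dynll1 and Tuba1a) and 0 higher, and 0 with the 18S covariate in limma (2 higher and 2 lower at an unadjusted p under 0.05). Dynll1, a light chain of dynein, read 11.87, 9.86 and 9.95 against 5.10, 3.54, 3.51 and 6.40. With 1 of its 4 probe sets in the other direction, its difference was -5.92 ± 0.95 (SE; adjusted p = 0.0015), and nearly the same, -5.91, from the other fibroblasts (adjusted p = 0.00268). Tuba1a, an alpha-tubulin, read 11.77, 10.26 and 9.73 against 4.09, 3.64, 4.99 and 9.56, with cardiomyocyte 4 just under fibroControl 3. Its difference of -5.01 (adjusted p = 0.0216) kept its call only without fibroControl 3 or cardiomyocyte 4 (adjusted p up to 0.0949 otherwise), and was -6.66 from the other fibroblasts (adjusted p = 0.0112).

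Ribosomal protein genes, whose products build the ribosome with the ribosomal RNAs, gave the largest count of any list: 25 of 43 were lower in cardiomyocytes and 0 higher, 38 of the 43 differences were negative, and the median difference was -3.62. Rplp2, a protein of the stalk that recruits translation factors, read 10.61, 10.16 and 10.64 in fibroControl cells and 4.49, 6.61, 3.25 and 3.54 in cardiomyocytes. Its difference was -6.0 ± 1.20 (SE; adjusted p = 0.00773), and the fibroblasts without transfection, at 4.52, 6.46 and 6.27, overlapped the cardiomyocytes. Rpl10a, a large-subunit protein, read 12.12, 11.48 and 12.06 against 6.01, 5.11, 6.71 and 7.63, and fell by 5.52 on the log2 scale (adjusted p = 0.00539). Rps14 of the small subunit fell by 5.48 (adjusted p = 0.0115) and Rpl38 by 5.08 (adjusted p = 0.0095). Rpl41, the smallest protein of the ribosome, held its fibroControl cells within 13.37 to 13.38 and its cardiomyocytes at 7.17, 9.31, 9.72 and 9.63. It was the member that also passed against the fibroblasts without transfection, by -3.73 (adjusted p = 0.0322), after -4.42 from fibroControl cells (adjusted p = 0.00286). Such genes have many processed pseudogenes, and how far their probe sets read these is not known here.

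The mean level of the 43 genes was 9.88, 9.53 and 9.80 in fibroControl cells, 7.58, 7.88 and 8.96 in fibroblasts without transfection, and 6.37, 6.84, 6.75 and 7.0 in cardiomyocytes. The 3 kinds of cell did not overlap on this mean, with the fibroblasts without transfection in the middle. Between the 2 kinds of fibroblast the median difference of the list was 1.64 and 0 of 43 passed in limma (13 at an unadjusted p under 0.05). Against the fibroblasts without transfection the cardiomyocytes had a median difference of -1.29 and 1 of 43 passed (18 unadjusted). The 18S level moved with this list: it was 11.23 to 12.08 in fibroControl cells and at most 8.24 in cardiomyocytes, and with it as a covariate 0 of 43 passed in limma (1 higher and 2 lower at an unadjusted p under 0.05) and the median difference was -0.79. The count of 25 fell to 8 (without fibroControl 1) to 18 when a cell was left out, and to 13 or 14 under the other scalings, with the median difference between -3.85 and -3.25 in all of these.

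**Figure D5:**
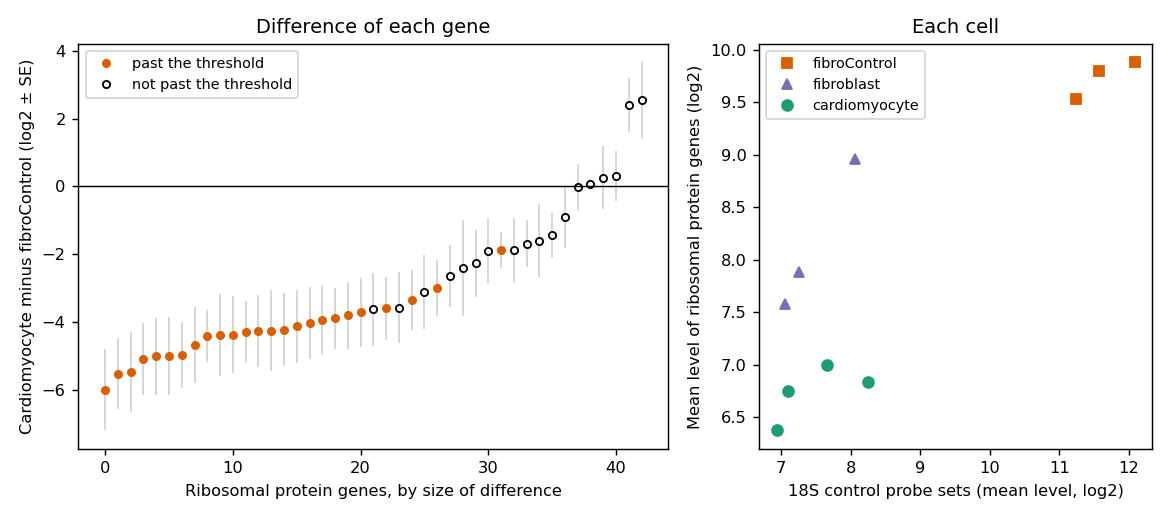
Left: the cardiomyocyte minus fibroControl difference (log2, bars are standard errors) of the 43 ribosomal protein genes in order of size, filled where past the threshold (25 genes, all negative). Right: 1 point per cell, the 18S control level on the x axis against the mean level of the 43 genes on the y axis (both log2); fibroControl cells lie at 9.53 to 9.88 and cardiomyocytes at 6.37 to 7.0.

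Factors of translation gave 3 of 16 lower (Eef1a1, Eef2 and Pabpc1) and 1 higher (Naca), and 0 with the 18S covariate in limma (1 higher and 1 lower at an unadjusted p under 0.05). Eef1a1, the elongation factor that brings aminoacyl-tRNA to the ribosome, read 11.41, 10.96 and 11.51 in fibroControl cells and 3.13, 1.96, 3.58 and 4.91 in cardiomyocytes. The difference was -7.89 ± 1.18 (SE; adjusted p = 0.000833), and the other fibroblasts lay between at 7.0, 6.98 and 8.89 (difference -4.23, adjusted p = 0.173). Eef2, which moves the ribosome along, and Pabpc1, which binds the poly-A tail, differed by -4.52 (adjusted p = 0.0229) and -4.12 (adjusted p = 0.0277) with 1 of 2 probe sets of each in the other direction. Eef2 lost it without fibroControl 1 or 2 or cardiomyocyte 1 or 3 (adjusted p up to 0.0707), and Pabpc1 without fibroControl 1 or 2 or cardiomyocyte 3 or 4 (adjusted p up to 0.104).

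Several of the largest changes separated fibroControl cells from the cardiomyocytes and from the fibroblasts without transfection alike. Fth1, the heavy chain of the iron store ferritin, read 10.97, 11.79 and 12.28 in fibroControl cells, 4.28, 3.76, 5.29 and 4.74 in cardiomyocytes, and 4.31, 3.51 and 5.82 in fibroblasts without transfection. The cardiomyocytes and those fibroblasts overlapped throughout, the cardiomyocyte difference from fibroControl cells was -7.16 ± 0.98 (SE; adjusted p = 0.000248), and fibroControl cells exceeded the other fibroblasts by 7.14 (adjusted p = 0.00512). Pglyrp2, a peptidoglycan amidase known from liver, read 12.29, 12.97 and 12.67 in fibroControl cells and 2.18 to 5.59 in all other cells compared, a cardiomyocyte minus fibroControl difference of -8.17 (adjusted p = 0.00211) and of 9.23 between the fibroblasts (adjusted p = 0.00872). Ang, the ribonuclease angiogenin, was at 10.20 to 12.02 in fibroControl cells and 2.05 to 3.84 in those groups, a difference of -7.89 (adjusted p = 0.00293), with 2 of its 3 probe sets in the other direction. Lipf, a gastric lipase, differed by -6.95 (adjusted p = 0.00413), Arhgap18 by -7.07 (adjusted p = 0.0015; 1 of 2 probe sets pointed the other way) and Rasal3, a Ras regulator of blood cells, by -7.35 (adjusted p = 0.00698). For these 3 genes the difference of cardiomyocytes from fibroblasts without transfection lay between -0.99 and 0.92, with adjusted p of 0.849 or more. The fibroControl minus fibroblast differences were 7.87 (adjusted p = 0.0095), 7.16 (adjusted p = 0.00912) and 6.36 (adjusted p = 0.0373). The 5 fibroTIPeR cells, fibroblasts transfected with cardiomyocyte RNA, also reached high levels of these genes: 6.98 to 12.58 for Fth1, 3.56 to 13.32 for Pglyrp2, 2.27 to 12.63 for Ang, 4.38 to 13.16 for Lipf, 5.07 to 12.04 for Arhgap18 and 2.76 to 12.89 for Rasal3. The high levels were thus not limited to fibroControl cells, and no test was made against fibroTIPeR cells. For each of these genes except Fth1, fibroTIPeR cells 1 to 3 were above cells 4 and 5. Pglyrp2 read 9.08, 13.32 and 10.13 against 3.56 and 4.38. For Fth1, cell 5 read 10.57 and cell 2 read 10.33. The 18S level was 12.38, 11.03 and 13.48 in cells 1 to 3, and 7.80 and 7.88 in cells 4 and 5. A link between 18S and these genes was not tested.

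The reverse pattern, low in fibroControl cells and high in cardiomyocytes and in fibroblasts without transfection, was also among the largest increases. Naca, which shields the nascent chain at the ribosome and has a muscle form, read 5.88, 3.62 and 3.82 in fibroControl cells, 8.23, 10.07, 8.20 and 11.89 in cardiomyocytes, and 11.11, 10.22 and 14.43 in fibroblasts without transfection. Its difference was 5.16 (adjusted p = 0.0127) from fibroControl cells and -2.32 (adjusted p = 0.515) from the others; of 2 probe sets 1 pointed the other way, as it did for Carnmt1, Parp14 and Gas6. Carnmt1, a carnosine methyltransferase, differed by 5.42 (adjusted p = 0.0129) and by -2.02 from the others (adjusted p = 0.594), and Parp14, an ADP-ribosyltransferase of the interferon response, by 5.0 (adjusted p = 0.0226) and -1.32 (adjusted p = 0.755). FibroControl cells were below the other fibroblasts by 7.48, 7.44 and 6.32 for Naca, Carnmt1 and Parp14 (differences -7.48, -7.44 and -6.32; adjusted p = 0.00872, 0.00912 and 0.0173). Calls were lost without fibroControl 2 or 3 for Naca (adjusted p up to 0.0637), without fibroControl 1 or cardiomyocyte 4 for Carnmt1 (up to 0.0528), and without fibroControl 2 or cardiomyocyte 2 or 4 for Parp14 (up to 0.117). Pbsn, probasin of the prostate, Gas6, a ligand of TAM receptors, and Nit1, an amidase, differed by 5.94, 5.20 and 5.05 from fibroControl cells (adjusted p = 0.00983, 0.0188 and 0.00893). From the other fibroblasts these 3 differed by 1.40, 1.26 and 1.27 (adjusted p = 0.742, 0.768 and 0.72), and Gas6 lost its call without fibroControl 1 or 2 or cardiomyocyte 2 (adjusted p up to 0.0949).

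The remaining genes among the 15 largest changes in each direction were Fetub, Mpp5, Ampd2 and Psat1. Mpp5, a scaffold of cell polarity, rose by 5.19 (adjusted p = 0.00763), with 2 of its 3 probe sets in the other direction, and differed by 2.14 from the other fibroblasts (adjusted p = 0.509). Psat1, an enzyme of serine synthesis, read 11.34, 11.02 and 9.48 against 3.44 to 4.09 and differed by -6.85 (adjusted p = 0.00773), with -5.89 from the other fibroblasts (adjusted p = 0.0691). Fetub, a protease inhibitor known from liver, differed by 5.46 (adjusted p = 0.0322), a call that no fit without 1 cell kept (adjusted p up to 0.121). Ampd2, an AMP deaminase with 1 of 2 probe sets in the other direction, differed by -6.85 (adjusted p = 0.0266) and kept its call only without cardiomyocyte 2 (adjusted p up to 0.0759 otherwise).

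Of 32 heat shock and unfolded protein genes 1 fell: Hspa1a, the inducible HSP70, at 12.73, 10.41 and 8.77 in fibroControl cells and 7.08, 5.03, 7.51 and 7.69 in cardiomyocytes (difference -3.81, adjusted p = 0.0352). It was 4.28 higher in fibroControl cells than in the other fibroblasts (adjusted p = 0.0412) and kept its call against cardiomyocytes only without fibroControl 3 or cardiomyocyte 4 (adjusted p up to 0.197 otherwise). Of 35 interferon and foreign RNA genes 2 rose, Parp14 and Tlr7, the endosomal sensor of RNA, against 1.18% of all genes, and 6 were higher and 0 lower at an unadjusted p under 0.05. In fibroControl cells 4 of the 35 were lower than in the fibroblasts without transfection, against 0.835% of all genes: Aim2, a sensor of cytosolic DNA, and the interferon gene Ifna4 (differences -6.50 and -3.40, adjusted p = 0.0208 and 0.0233) besides Parp14 and Tlr7. Tlr7 read 3.22, 3.42 and 2.18 in fibroControl cells, all below the array's median, and 6.14, 6.89, 4.29 and 4.94 in cardiomyocytes (difference 2.62, adjusted p = 0.0354). The other fibroblasts were at 5.12, 6.42 and 7.89, and the fibroControl minus fibroblast difference was -3.53 (adjusted p = 0.0193). Its call, with 1 of 3 probe sets in the other direction, was kept only without cardiomyocyte 3 or 4 (adjusted p up to 0.131 otherwise). Of 39 cell cycle genes 1 fell, Melk, a mitotic kinase, by 6.01 on the log2 scale (adjusted p = 0.0186), with fibroControl cells 6.43 above the other fibroblasts (adjusted p = 0.0309). That call was lost without fibroControl 2 or 3 or cardiomyocyte 3 (adjusted p up to 0.0664). The counts of 1 in 32 heat shock genes and 1 in 39 cell cycle genes are near the 2.14% of all genes that passed as lower.

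Of 16 endothelial genes 1 rose, Robo4, a receptor of vessel walls, by 4.04 (adjusted p = 0.0136; 0.0624 without fibroControl 2), and of 23 astrocyte and neural genes 1 rose, Slc1a2, a glutamate transporter, by 4.03 (adjusted p = 0.0403). Over all genes 1.18% passed as higher, so 1 gene in a list of this size says little about the list. Robo4 was also high in the fibroblasts without transfection, at 9.06 ± 0.27 (SD, n = 3) against 9.85 ± 0.53 (SD, n = 4) in cardiomyocytes. For Slc1a2 4 of the 5 probe sets pointed the other way, and the call held only without fibroControl 3 (adjusted p up to 0.171 otherwise). Skeletal muscle (25 genes), macrophage and blood (20), epithelial and mesothelial (15) and pericyte and smooth muscle (14) genes had 0 past the threshold in limma, with 3, 2, 0 and 3 at an unadjusted p under 0.05 in either direction. Within those lists Hba-a1, a haemoglobin chain, had a difference of 3.09 (adjusted p = 0.0509) and Myf6, a skeletal muscle regulator, of 3.07 (adjusted p = 0.142). The mean level of the macrophage and blood list was 6.76 to 7.03 in cardiomyocytes and 6.14 to 6.35 in fibroControl cells, that of the endothelial list 5.65 to 6.27 and 5.28 to 5.48, that of the astrocyte and neural list 7.16 to 7.63 and 6.50 to 6.92, and that of the epithelial and mesothelial list 6.12 to 6.90 and 5.76 to 5.94. On these 4 lists every cardiomyocyte was above every fibroControl cell, while the fibroblasts without transfection overlapped the cardiomyocytes (6.23 to 7.0, 5.68 to 5.93, 6.72 to 7.42 and 5.90 to 6.50). The medians of their differences from fibroControl cells were 0.88, 0.52, 0.61 and 0.70, against 0.10 over all genes. The part of these genes in the other results was not tested.

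With both kinds of fibroblast averaged as the reference, an alternative chosen after the data were seen, 127 genes (0.698%) passed, 43 (0.236%) higher and 84 (0.462%) lower in cardiomyocytes. Tnni3, Myl2, Plin5 and Myh6 differed by 7.44, 6.07, 5.60 and 5.48 (adjusted p = 3.62e-07, 3.62e-07, 1.49e-07 and 8.74e-06), and Atp2a2 by 6.77 (adjusted p = 0.000399). Myl3 passed there, with 3.75 (adjusted p = 0.0398). Vim differed by -8.70 (adjusted p = 6.44e-06), Cald1 by -6.08 (adjusted p = 4.76e-05), Dynll1 by -5.91 (adjusted p = 0.000184) and Tpm3 by -5.85 (adjusted p = 0.000184). In this comparison 4 of 12 thick filament, 4 of 18 calcium cycling, 8 of 36 cytoskeletal, 3 of 26 collagen and 7 of 43 ribosomal protein genes passed. With the 18S level as a covariate in the comparison with fibroControl cells, the differences of the 6 genes that passed were 11.51 for Atp2a2, 8.08 for Tnni3, 7.80 for Mybpc3, 7.43 for Myl2, 6.28 for Myh6 and 5.58 for Plin5 (adjusted p from 2.62e-05 to 0.00519).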

How the data were processed

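Each sample was RNA of 1 mouse cell on 1 Affymetrix expression array, and groups were taken from the labels. The deposited table holds log2 expression values, as judged from their range; the sources used here do not state how the authors summarised, scaled or centred them, and hold no detection calls. Column medians differed by 1.29, so all 23 arrays were quantile normalized; no pair of arrays was identical (0 pairs). The 64 control probe sets, 932 with several symbols and 9160 not listed in the platform annotation were left out of the tests. Gene IDs of 34741 probe sets matched RefSeq and 0 symbols changed. For the 9010 genes with several probe sets, the probe set brightest on average across the arrays stood for the gene.

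The test was that of limma (version 3.58.1; R 4.3.3, statmod 1.5.0), lmFit with 6 group means over all 23 cells, so that groups share an estimate of spread, and eBayes with a trend, two-sided, with Benjamini-Hochberg adjustment over 18193 genes and a threshold of 0.05. The scripts were tested on simulated data. Named genes were the 15 largest changes in each direction among genes past the threshold without overlap, up to 4 members per direction of each list past the threshold (otherwise the 2 with the smallest p), and a fixed set of cardiac and fibroblast genes; Actn2, Aldoa, Casq2, Eno2, Rpl41, Slc8a1 and members named only in list counts were added after their values were seen. Members and lists were chosen with earlier results of these data known. Medians of all genes shifted by 0.11 as deposited and by -0.11 when arrays were centred. Alternatives changed the scaling, filter, probe set rule, fit, reference and cells, and are given at the end. The number of arrays limits the precision. Figures used matplotlib 3.10.9 in Python 3.11.15.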

Additional observations from a re-analysis of the deposited data

Results flagged for a closer look

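Among the 108 named genes, 8 had a cardiomyocyte far from the other 3, at a gap that chance gives in about 1 in 20 groups of 4. In cardiomyocyte 1 Pln read 8.06 and Ryr2 6.44, both the lowest of the group for these calcium cycling genes, and Tagln, a smooth muscle gene, read 2.02, again the lowest. Cardiomyocyte 2 stood apart for Pglyrp2 (5.59, the highest) and Ang (2.05, the lowest). Cardiomyocyte 3 was lowest for Pbsn (9.10) and Gas6 (8.83). Cardiomyocyte 4 was highest for Fcer1g, a signalling chain of immune cell receptors (4.38). The calls for Pln, Pbsn, Pglyrp2 and Ang held in every fit that left out a cell, and those for Ryr2 and Gas6 did not.

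For 19 of the 108 genes the 2 fibroblast references differed from each other past the threshold, which is the test of whether the difference of cardiomyocytes depends on the reference. Over all genes 1.56% did. Many of the 108 were named for a difference between cardiomyocytes and these same fibroControl cells, which can raise the count of 19. No rate is drawn from it. FibroControl minus fibroblast was positive for Pglyrp2 (9.23), Lipf (7.87), Ang (7.54), Arhgap18 (7.16), Fth1 (7.14), Melk (6.43) and Rasal3 (6.36). It was also positive for the matrix genes Mmp2 (5.48), Igfbp4 (4.24) and Col6a3 (3.94), for Hspa1a (4.28) and for Cdsn (3.08), a protein of cornified epithelium. It was negative for Naca (-7.48), Carnmt1 (-7.44), Parp14 (-6.32), Myf6 (-4.93), Trdn (-4.80), Tlr7 (-3.53) and Rgs5 (-4.16), a pericyte gene. Of the cardiac genes named, Trdn was in this group, and none of Myh6, Myl2, Mybpc3, Tnni3, Actc1, Myoz2, Nebl, Nexn, Csrp3, Atp2a2, Pln or Ryr2 was. The 18S level was also higher in fibroControl cells than in the other fibroblasts, and its part in these differences was not tested gene by gene. With it as a covariate 0 genes differed between the 2 kinds of fibroblast in limma, a fit whose 18S slope again came mainly from fibroTIPeR cells. No conclusion is drawn from these lost calls.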

How the results depend on the processing

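Of the 77 named genes past the threshold none changed sign in any alternative, and 47 kept their call in all 7 fits that left out a cell. Many calls were lost in other alternatives: 71 of the 77 with the 18S covariate, 36 with both kinds of fibroblast as the reference, 23 with probe sets averaged and 22 with a replicate block. Under the other scalings 13 were lost as deposited, 12 with arrays centred and 11 with quantiles within each array set. Genes past the threshold against fibroControl cells (604; 214 higher, 390 lower) became 342 (127, 215) on the values as deposited, 368 (96 higher) with arrays centred, 376 (124, 252) with quantiles within each array set, 909 (630 lower) with every probe set, 1325 (602, 723) with array weights, 967 (392 higher) with the compared groups alone, 6 (6, 0) with the 18S covariate, and 127 (43, 84) against both kinds of fibroblast. Leaving out a cell gave 257 to 352 (69 to 139 higher, 188 to 242 lower). Against fibroblasts without transfection the 41 genes became 21 as deposited and without the trend, 18 centred and with probe sets averaged, 1130 with array weights, 2 with the groups alone and 71 with 18S, and 11 to 37 without a cell. Between the fibroblasts the 283 genes became 135, 143 and 156 under these scalings, 173 above the median level, 479 with every probe set, 1890 with array weights, 86 alone, 0 with 18S and 42 to 144 without a cell. Cells with the same number did not deviate together, so numbers were not taken as pairs; a replicate block gave 479 genes against fibroControl cells, and 12 and 47 in the other comparisons. Only uncalled genes reversed: Gata4 (0.31, probe sets averaged), Thy1 (0.66, both references), Rgs5 (-0.69), Ttn (-0.19), Nppb (-0.56), Ckm (-0.68), Acta2 (3.48) and Tagln (1.86) with 18S, and without a cell Nkx2-5 (-0.30 to 1.32), Ckm (-0.56 to 1.74), Nppb (-0.083 to 0.90), Myh7 (-0.32 to 1.23) and Thy1 (-0.99 to 0.052). The causes were not tested. With 3 and 4 cells and no detection calls, a low level cannot be told from background.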
